A study of Mus musculus with 2 samples.

Results

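Collagens, other extracellular matrix genes and fibroblast identity genes were followed in the mouse heart as 44 genes listed by symbol. Every deposited transcript model of a known gene with a listed symbol was taken, whatever its class. Of the 44 genes, 43 had a read, out of 14514 annotated nuclear genes with a read in either library. Col6a3 had none, and Postn had a read in replicate 2 alone. The genes held 370 transcript models with 2683 reads in replicate 1 and 421 models with 3165 reads in replicate 2.

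Hearts came from male B6CASTF1/J mice aged 2 months, the F1 cross of the C57BL background with the wild-derived CAST background. Long-read RNA sequencing, in which a read is meant to follow a transcript from end to end, gave 1 group of 2 libraries, each from 2 µg of total RNA with synthetic spike-in RNAs. The labels number separate animals for the biosamples, but another text field gives both libraries the same animal. All differences below therefore measure the spread between these 2 libraries, which may be technical.

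The extracellular matrix of the heart is a network of fibril-forming collagens, basement membranes, proteoglycans and glycoproteins that holds cardiomyocytes together and carries force between them. Resident fibroblasts make most of the fibrillar collagen, whereas cardiomyocytes, endothelial cells and mural cells also supply basement membrane proteins. Collagen chains are assembled in groups of 3 with the help of a chaperone in the endoplasmic reticulum, secreted, trimmed and cross-linked.

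Levels are in CPM (counts per 1000000 reads of annotated nuclear genes). Such reads numbered 430251 in replicate 1 and 629896 in replicate 2. A long read counts a molecule once, so levels were not divided by length, and the longest coding length is given where genes are compared. The 44 genes together stood at 6236 CPM in replicate 1 and 5025 CPM in replicate 2, a mean of 5630 ± 856 CPM (SD, n = 2). They took 0.624% of the reads of nuclear genes in replicate 1 and 0.502% in replicate 2. The median gene of the 44 stood at 43.6 CPM. The cell-surface proteoglycan Gpc1 alone held 25.7% of the reads of the 44 genes in replicate 1 and 23.7% in replicate 2. In bulk tissue, fewer cells of a type and less RNA per cell cannot be told apart.

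By role, the 5 proteoglycans summed to 2340 CPM in replicate 1 and 1875 CPM in replicate 2. The 6 adhesive and matricellular glycoproteins followed, with 679 CPM in replicate 1 and 613 CPM in replicate 2. The 7 laminins and nidogens had 660 and 505 CPM, in the same order of libraries. Close to them were the 5 fibril-forming collagens, with 653 CPM in replicate 1 and 425 CPM in replicate 2. These 3 sums, with means of 646 ± 46.6, 582 ± 110 and 539 ± 161 CPM (SD, n = 2), overlapped in their spread. The 2 collagen IV chains had a mean of 508 ± 103 CPM, the chaperone and processing genes 431 ± 50.8 CPM, the protease and its inhibitors 351 ± 22.8 CPM, and the fibulins with fibrillin 336 ± 1.44 CPM. At the low end were the 3 collagen VI chains with 51.5 ± 25.7 CPM, the 4 other collagens with 41.1 ± 4.28 CPM and the 2 fibroblast identity genes with 36.1 ± 1.60 CPM.

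**Figure D1:**
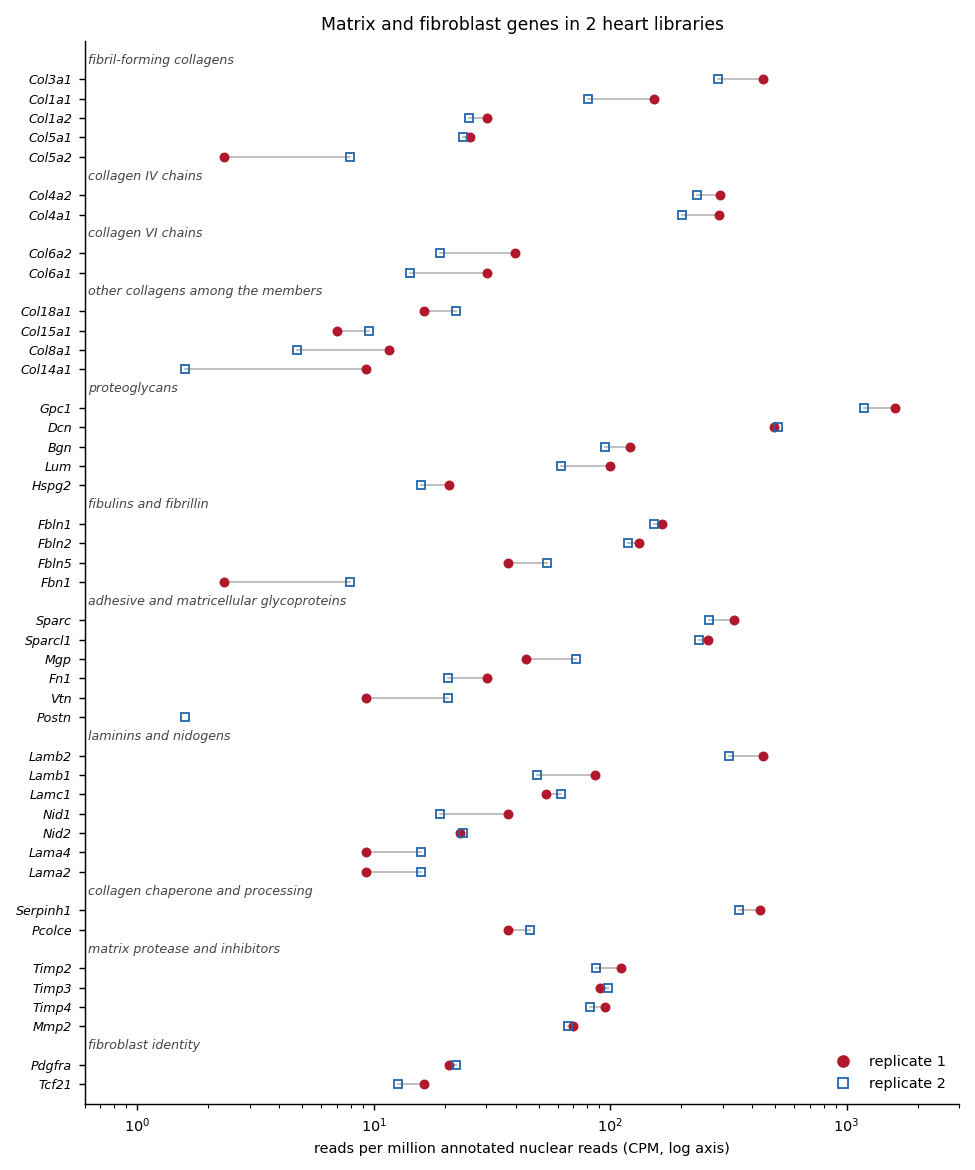
Level of each of the 43 genes with a read in CPM on a log axis, with genes grouped by role and a point for each library. Col6a3, with no read, is not drawn, and Postn has a point for replicate 2 alone. Gpc1 sits highest with 1604 CPM in replicate 1 and 1189 CPM in replicate 2, and Dcn follows with 495 and 513 CPM.

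Raw reads of each gene were set against each other between the libraries in an exact binomial test, two-sided, with Benjamini-Hochberg adjustment over the 8086 annotated nuclear genes that had at least 10 reads in all. With 1 library on each side there is no replicate check, and the test covers counting error only. Of the 44 genes, 37 had enough reads to be tested, and 7 did not. Col3a1 and Gpc1 passed at an adjusted p under 0.05, which is 2 of 37, against 0.693% of all genes tested. None of the 37 also differed at least 2-fold, against 0.322% of all genes tested. At an unadjusted p under 0.05 there were 9 of the 37, or 24.3%, against 7.11% of all genes tested. A gene with more reads passes at a smaller ratio, and the matrix genes had more reads. At least 100 reads were held by 15 of the 37, against 1747 of the 8086 genes. At that depth the median size of the log2 ratio was 0.35 for the 15 genes and 0.16 for the 1747. The level was higher in replicate 1 for 25 of the 37 and higher in replicate 2 for 12, and the median log2 ratio of replicate 1 over replicate 2 was 0.26, against 0.01 for all genes tested. When libraries were scaled by their ERCC spike-in reads in place of nuclear totals, neither gene passed, 18 of the 37 were higher in replicate 1, and the median of the 37 was -0.0032, against -0.25 for all genes.

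Summed marker genes of heart cells stood as follows. Cardiomyocyte markers, read for 10 of 10 genes, summed to 56948 CPM in replicate 1 and 49653 CPM in replicate 2. That order was set by Myh6 alone, since the other 9 genes were all lower in replicate 1 and summed to 20458 CPM there and 22001 CPM in replicate 2, and the median log2 ratio of the list was -0.13. Endothelial markers, read for 10 of 10 genes, summed to 1362 and 1180 CPM. Macrophage and leukocyte markers, read for 10 of 10 genes, were nearly level at 502 CPM in either library. Pericyte and smooth muscle markers, read for 9 of 9 genes, summed to 628 CPM in replicate 1 and 657 CPM in replicate 2. Adipocyte markers, read for 5 of 6 genes with Lep at 0, were at 60.4 CPM in replicate 1 and 162 CPM in replicate 2. Fibroblast markers outside the 44 genes, read for 14 of 16 with Fap and Lamp5 at 0, summed to 7152 and 6450 CPM, of which Gsn held 6550 and 5911 CPM. The other 13 fibroblast markers summed to 602 CPM in replicate 1 and 540 CPM in replicate 2. The part of these differences in the library ratios of the matrix genes was not tested.

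Ratios also ran with transcript length. Among genes with a longest coding transcript of 2 kb or less, the median log2 ratio was -0.29 for 5 of the matrix genes and -0.09 for 2121 other genes. Between 2 and 4 kb it was 0.32 for 8 matrix genes and 0.01 for 3303 others. From 4 to 6 kb it was 0.35 for 14 matrix genes and 0.10 for 1586 others, and above 6 kb it was 0.22 for 10 and 0.11 for 784. The shortest class thus stood lowest both among the matrix genes and among the others. Scaled by the total of its own length class, an alternative chosen after seeing the data, Gpc1 was the 1 gene of the 37 that passed.

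**Figure D2:**
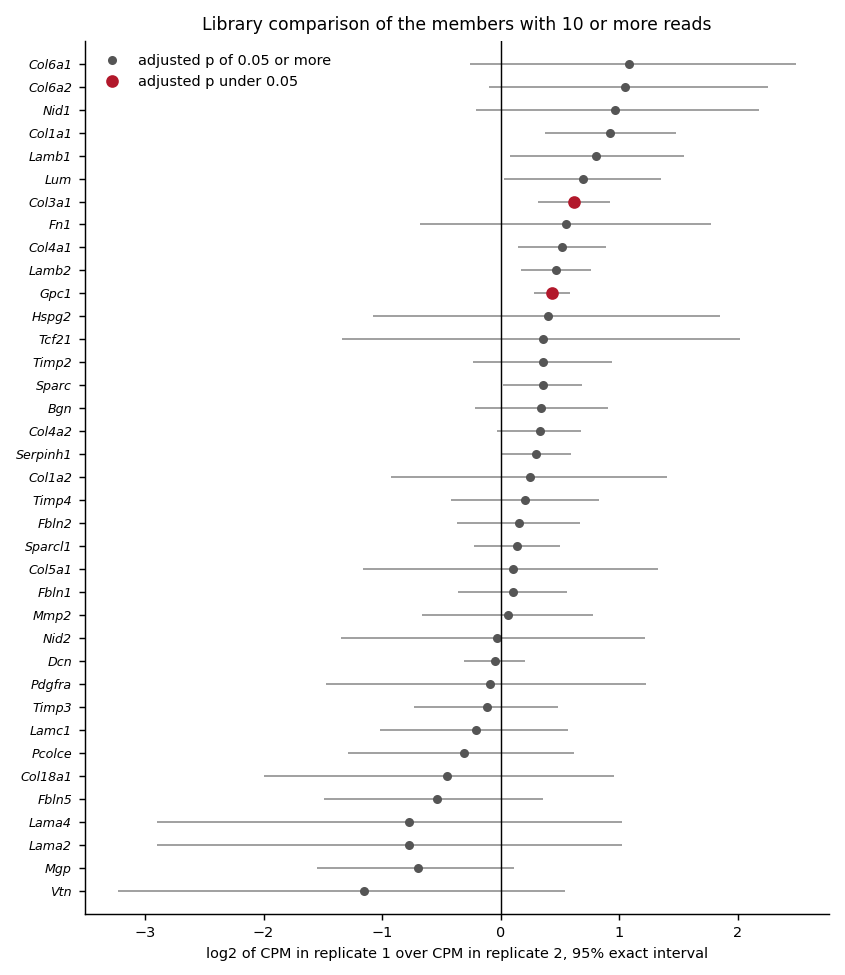
Log2 ratio of the CPM in replicate 1 over the CPM in replicate 2 for the 37 genes with at least 10 reads, with exact 95% intervals of counting error. Col3a1 and Gpc1 are the 2 genes that passed, both to the right of 0.

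Of the fibril-forming collagens, Col3a1 had the highest level. Col3a1 (chr1:45311538-45349706, plus strand of mm10) encodes the chain of type III collagen, the fine fibrils that accompany type I in stretchable tissue. It had 190 reads in replicate 1 and 181 in replicate 2, or 442 CPM and 287 CPM. Replicate 1 was the higher by a ratio of 1.54, with an exact 95% interval of 1.25 to 1.89 (log2 0.62, exact binomial adjusted p = 0.00889). Col1a1 (chr11:94936224-94953042, plus strand), the α1 chain of type I collagen, had 66 reads in replicate 1 and 51 in replicate 2, or 153 CPM and 81.0 CPM. Its ratio of 1.89 had an interval of 1.29 to 2.79 and did not pass (exact binomial adjusted p = 0.0869). Col1a2 (chr6:4504814-4541544, plus strand), the partner chain that is built into the same molecule with Col1a1, had 13 and 16 reads, or 30.2 CPM in replicate 1 and 25.4 CPM in replicate 2. Reads of Col1a1 thus outnumbered those of Col1a2 by 5.08 in replicate 1 and by 3.19 in replicate 2, and the longest coding transcripts are 5930 and 5348 bases long. Reads of Col3a1 outnumbered those of Col1a1 by 2.88 and 3.55.

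Fibril-forming chains repeat a triplet of glycine and 2 further residues, and their exons keep this repeat. The 14 collagens among the 44 genes have 580 internal coding exons in GENCODE M21, of which 364 (62.8%) are a multiple of 9 bases long and 141 are of exactly 54 bases. Of those 141 exons, 138 hold an in-frame glycine codon at the start of each of their 6 triplets. In the 30 genes without a collagen chain, 18.0% of 573 such exons are a multiple of 9 bases, and in other coding genes 14.1% of 155278. The 54-base exons shown next are from 4 of the collagens read in these hearts, in GENCODE M21 on GRCm38, with glycine codons in capitals. They lie at chr11:94939904-94939957 (Col1a1, exon 8), chr6:4515481-4515534 (Col1a2, exon 8), chr1:45325360-45325413 (Col3a1, exon 6) and, on the minus strand, chr8:11245211-11245264 (Col4a1, exon 7).
Col1a1: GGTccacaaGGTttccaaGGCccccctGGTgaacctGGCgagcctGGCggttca
Col1a2: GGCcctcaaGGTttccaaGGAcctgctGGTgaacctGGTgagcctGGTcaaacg
Col3a1: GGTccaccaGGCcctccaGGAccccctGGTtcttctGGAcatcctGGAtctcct
Col4a1: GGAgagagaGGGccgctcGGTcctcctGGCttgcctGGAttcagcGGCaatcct
Each is the first 54-base exon of its chain with a glycine codon at the start of all 6 triplets. The first 2 bases of these codons therefore match in every pair by selection, and the exons were not chosen as counterparts. Base by base, the Col1a1 exon is the same as the Col1a2 exon at 42 of 54 positions, as the Col3a1 exon at 35 and as the Col4a1 exon at 25. These counts include the selected matches and do not measure how related the chains are.

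Fibrillar collagens differed in how many of their reads held the first annotated junction. For Col3a1, 169 reads in replicate 1 held the first annotated junction and 188 the last, and in replicate 2 the numbers were 161 and 177. For Col1a1 they were 53 and 63 in replicate 1 and 49 and 51 in replicate 2. No read of Col1a2 held its first junction, against 13 reads with the last junction in replicate 1 and 16 in replicate 2. The most complete Col1a2 model held 48 of 51 introns over 4535 bases, so all 29 Col1a2 reads lay in models outside the annotated full chain. The shortest internal coding exon of Col1a2 has 11 bases, and whether short exons enter its first-junction count was not tested. The α1 chain of type V collagen, Col5a1 (chr2:27886425-28039514, plus strand), starts and limits fibril assembly. It had 11 reads in replicate 1 and 15 in replicate 2, or 25.6 and 23.8 CPM. Few of them were complete, since 3 reads held the first junction against 10 with the last in replicate 1, and 4 against 14 in replicate 2. The longest followed all 65 introns over 8406 bases. Col5a2, the partner chain of type V collagen, had 1 and 5 reads, too few for a test.

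Near the 3′ end of the Col5a1 chain, reads carried either of 2 neighbouring exons of 69 bases. The annotated exon was in 5 of 10 reads in replicate 1 and in 9 of 14 reads in replicate 2. An exon that GENCODE M21 lacks in all transcripts was in the other 5 reads of replicate 1 and in 5 of 14 reads of replicate 2. No model held both exons and none held neither. The libraries did not differ in this choice beyond counting error (Fisher's exact test, p = 0.678). Human COL5A1 is known for a pair of exons used one or the other at a like place.

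Type IV collagen forms the sheet of basement membranes, and its 2 common chains are transcribed from a shared region in opposite directions. Col4a1 (chr8:11198423-11312826, minus strand) had 124 reads in replicate 1 and 127 in replicate 2, or 288 and 202 CPM. Col4a2 (chr8:11312805-11449287, plus strand) had 126 and 147 reads, or 293 and 233 CPM. The pair stayed close in either library, with 1.02 Col4a2 reads for each Col4a1 read in replicate 1 and 1.16 in replicate 2. Neither chain passed the library comparison, with ratios of 1.43 (1.11 to 1.85, exact binomial adjusted p = 0.318) for Col4a1 and 1.25 (0.981 to 1.60, exact binomial adjusted p = 0.732) for Col4a2. Fewer reads of both chains covered the 5′ end than the 3′ end. For Col4a1, 62 reads held the first junction and 122 the last in replicate 1, and 53 and 122 in replicate 2. For Col4a2, 30 reads held the first junction and 73 the last in replicate 1, and 30 and 87 in replicate 2. Col4a2 also had 52 reads in replicate 1 and 60 in replicate 2 that covered part of a single exon, the most of any of the 44 genes in replicate 1.

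The annotated starts of Col4a1 and Col4a2 lie at bases 11312826 and 11312805 of chromosome 8, so their first exons overlap by 22 bases on opposite strands. The sources used here do not say how reads were assigned to a strand. The RefSeq window of Col4a2 (GRCm38.p6, chr8:11312555-11312854, plus strand) covers both annotated starts and is 73.7% G or C. It is shown with GGGCGG or its complement CCGCCC, the GC box bound by SP-family factors, and CCAAT in capitals.
Col4a2: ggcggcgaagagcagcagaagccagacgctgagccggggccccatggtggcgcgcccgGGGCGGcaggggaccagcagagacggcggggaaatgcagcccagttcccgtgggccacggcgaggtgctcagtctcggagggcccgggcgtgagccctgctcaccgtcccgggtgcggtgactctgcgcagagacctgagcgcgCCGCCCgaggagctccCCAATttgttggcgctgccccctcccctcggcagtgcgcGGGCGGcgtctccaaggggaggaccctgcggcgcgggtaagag
The window holds 3 GC boxes and 1 CCAAT. Over the 31 matrix genes with an entry, 21 of 36 such windows of 300 bases (58.3%) held a GC box on either strand, against 35.7% of all 32851 windows. CCAAT or its complement was in 9 of the 36 (25%), against 37.4%, and TATAAA or its complement in 3 (8.33%), against 13.6%. The 3 motifs do not overlap in sequence.

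Type VI collagen makes beaded filaments between cells and basement membranes from 3 chains. Col6a1 (chr10:76708792-76726168, minus strand) had 13 and 9 reads, or 30.2 CPM in replicate 1 and 14.3 CPM in replicate 2. Col6a2 (chr10:76595762-76623630, minus strand) had 17 and 12 reads, or 39.5 and 19.1 CPM. The pair kept a close ratio, with 0.765 Col6a1 reads for each Col6a2 read in replicate 1 and 0.750 in replicate 2. Col6a3, the long chain with an annotated transcript of 10106 bases, had no read, which allows up to 6.97 CPM in replicate 1 and 4.76 CPM in replicate 2.

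No Col6a1 read followed the annotated chain in full, and the models differed from it around 3 short exons. Exons 6 (chr10:76721263-76721283) and 7 (chr10:76721088-76721108), of 21 bases each, were absent from the models of all 10 reads of replicate 1 and all 7 reads of replicate 2 that spanned them. Exon 29 (chr10:76712865-76712873), of 9 bases, was absent from the models of 13 of 13 reads in replicate 1 and 8 of 9 in replicate 2, and the remaining read had another boundary there. The same models also gained bases beside them. Exon 8 began 37 bases earlier than annotated in 10 reads of replicate 1 and 7 of replicate 2, and exon 28 ended 4 bases later in 11 and 7 reads. All these boundaries are those of the deposited models. Read sequences were not examined, and how short exons were aligned was not tested. The annotated sequence follows with the 3 short exons in capitals, first exons 6 and 7 together and then exon 29, each with 21 bases of the annotated neighbouring exons (Col6a1-201, GENCODE M21 on GRCm38). The bases gained in the models are not in it.
Col6a1 exons 6 and 7: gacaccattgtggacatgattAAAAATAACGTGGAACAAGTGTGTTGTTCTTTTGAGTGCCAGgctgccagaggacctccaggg
Col6a1 exon 29: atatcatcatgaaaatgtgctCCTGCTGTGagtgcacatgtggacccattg
In the models of other genes the shortest exons were mostly skipped too. Of those with 15 bases or fewer, 44 of 45 (97.8%) in other genes were skipped by at least 50% of reads. For exons of 16 to 30 bases the numbers were 2 of 16 (12.5%) in the matrix genes, both in Col6a1, and 55 of 384 (14.3%) in other genes. For 31 to 60 bases they were 0 of 170 and 107 of 4453 (2.40%).

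The other collagens were near the floor of detection. Col18a1, a basement membrane collagen whose tail releases endostatin, had 7 reads in replicate 1 and 14 in replicate 2, or 16.3 and 22.2 CPM. Col15a1, its relative in the basement membrane of muscle and capillaries, had 3 and 6 reads. Col8a1, a short-chain collagen of vessel walls, had 5 and 3 reads, and Col14a1, which binds to the surface of fibrils, had 4 and 1. Col18a1 alone had enough reads for the library comparison and did not pass (exact binomial adjusted p = 1). Of 30 further collagen genes in the annotation, 9 had a read, none had 10, and the highest were Col4a5 at 6.66 CPM, Col16a1 at 5.50 CPM and Col5a3 at 4.71 CPM.

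Gpc1 (ENSMUSG00000034220.7, chr1:92831645-92860779, plus strand), a heparan sulfate proteoglycan tethered to the cell surface by a lipid anchor, ranked 93 among all genes read. It had 690 reads in replicate 1 and 749 in replicate 2, or 1604 and 1189 CPM, a mean of 1396 ± 293 CPM (SD, n = 2). Replicate 1 was the higher by a ratio of 1.35, with an exact 95% interval of 1.21 to 1.50 (log2 0.43, exact binomial adjusted p = 6.04e-06). With ERCC scaling its log2 ratio was 0.17 and it did not pass (exact binomial adjusted p = 0.251). Reads that matched the annotated Gpc1 transcript made up 88.8% of its reads in replicate 1 and 79.0% in replicate 2. That gap of 9.80 percentage points passed Fisher's exact test (adjusted p = 0.000796) but stayed under the 10 points needed for a call, which 0 of 3318 genes reached (0%). Of 20 matrix genes in that comparison, 3 were under 0.05 before adjustment, against 3.47% of all genes tested. Gpc1 alone of the 20 passed after adjustment. The share of all genes that passed on adjusted p without the 10-point limit was not counted, so this pass has no background beside it. Most Gpc1 reads held the first junction, with 618 there and 650 at the last in replicate 1, and 611 and 672 in replicate 2.

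Small leucine-rich proteoglycans bind collagen fibrils and set their spacing. Decorin, Dcn (chr10:97479609-97518143, plus strand), had 213 reads in replicate 1 and 323 in replicate 2, or 495 and 513 CPM. At 504 ± 12.5 CPM (SD, n = 2) it ranked 280 among all genes read, and the libraries lay within counting error (ratio 0.965, interval 0.808 to 1.15). Dcn reads came from 2 annotated starts. Dcn-201, which begins at base 97479609, had 120 reads in replicate 1 and 200 in replicate 2, and Dcn-202, which begins at base 97482367, had 89 and 117. Dcn-201 thus took 57.4% of known-transcript reads in replicate 1 and 63.1% in replicate 2, a mean of 60.3 ± 4.01% (SD, n = 2), with the same length of 1758 bases and 8 exons as Dcn-202. Biglycan, Bgn (chrX:73483602-73495933, plus strand), had 52 and 60 reads, or 121 CPM in replicate 1 and 95.3 CPM in replicate 2. Lumican, Lum (chr10:97565128-97572703, plus strand), had 43 and 39 reads, or 99.9 and 61.9 CPM, a ratio of 1.61 (1.02 to 2.56) that did not pass (exact binomial adjusted p = 0.636). Perlecan, Hspg2, the large heparan sulfate proteoglycan of basement membranes, had 9 and 10 reads. Its annotated transcript has 14187 bases, and the model with the most of its 96 introns held 61.

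Fibulins and fibrillin organise elastic fibres and microfibrils. Fbln1 (chr15:85205949-85286535, plus strand) had 71 reads in replicate 1 and 97 in replicate 2, or 165 and 154 CPM, and Fbln2 (chr6:91212455-91272540, plus strand) had 57 and 75 reads, or 132 and 119 CPM. Fbln5, which brings elastin to microfibrils, had 16 reads in replicate 1 and 34 in replicate 2, a mean of 45.6 ± 11.9 CPM (SD, n = 2). Fbn1, the main microfibril protein, had 1 and 5 reads against an annotated length of 11971 bases. None of the 3 tested genes passed.

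Reads of Fbln1 divided between 2 coding ends. Fbln1-201, with 17 exons and 2115 coding bases before the stop codon, had 34 reads in replicate 1 and 44 in replicate 2. Fbln1-202, with 15 exons and 2055 coding bases, had 33 and 36 reads. Fbln1-201 thus took 50.7% of known-transcript reads in replicate 1 and 55.0% in replicate 2, a mean of 52.9 ± 3.01% (SD, n = 2). The last 60 bases of each reading frame are shown because they come from different last exons, with the stop codon in capitals (GENCODE M21 on GRCm38, chr15:85285120-85285179 for Fbln1-201 and chr15:85251740-85251799 for Fbln1-202).
Fbln1-201: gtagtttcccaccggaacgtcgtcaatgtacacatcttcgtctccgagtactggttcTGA
Fbln1-202: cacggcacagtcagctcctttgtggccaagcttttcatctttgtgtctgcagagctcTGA

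Fbln2 reads were split evenly over a cassette exon of 141 bases (chr6:91259630-91259770). The exon was included in 25 of 52 reads in replicate 1 and 37 of 71 reads in replicate 2, a mean of 50.1 ± 2.85% (SD, n = 2). The libraries did not differ beyond counting error (Fisher's exact test, p = 0.717). Over all 18 exon events of the 44 genes with enough reads, none was under 0.05 before adjustment, against 0.773% of 4915 events in all genes, and none was called, against 0%. The exon follows in capitals with 21 bases on either side (Fbln2-201, GENCODE M21 on GRCm38).
Fbln2: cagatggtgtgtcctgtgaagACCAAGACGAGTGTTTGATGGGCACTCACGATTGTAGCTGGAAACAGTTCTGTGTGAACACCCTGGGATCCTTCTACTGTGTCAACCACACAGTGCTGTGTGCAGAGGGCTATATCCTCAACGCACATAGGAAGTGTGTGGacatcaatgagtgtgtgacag

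Fibronectin, Fn1 (chr1:71585520-71653200, minus strand), an adhesive glycoprotein that binds integrins and collagen, had 13 reads in each library, or 30.2 CPM in replicate 1 and 20.6 CPM in replicate 2. Its transcript is known for 3 alternative places. Extra domain A, the exon of 270 bases at chr1:71603660-71603929, was included in 2 of 11 reads in replicate 1 and 3 of 9 in replicate 2. Extra domain B, the exon of 273 bases at chr1:71613763-71614035, was in 0 of 19 reads, which allows a share of up to 15.8%. The variable segment lies in the exon at chr1:71597281-71597747. Its full form had 8 of 13 reads in replicate 1 and 6 of 10 in replicate 2, a mean of 60.8 ± 1.09% (SD, n = 2). A form 75 bases shorter had 5 and 3 reads, and a form 360 bases shorter had 0 and 1. The sequence of extra domain A, and then the 75 bases that separate the 2 main forms of the variable segment, in capitals with 21 bases on either side, are from Fn1-201 of GENCODE M21 on GRCm38.
Fn1 extra domain A: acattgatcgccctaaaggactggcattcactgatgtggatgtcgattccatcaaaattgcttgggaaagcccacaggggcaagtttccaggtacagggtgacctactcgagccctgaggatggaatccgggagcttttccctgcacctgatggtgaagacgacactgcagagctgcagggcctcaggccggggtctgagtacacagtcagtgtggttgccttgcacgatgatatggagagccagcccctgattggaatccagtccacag
Fn1 variable segment: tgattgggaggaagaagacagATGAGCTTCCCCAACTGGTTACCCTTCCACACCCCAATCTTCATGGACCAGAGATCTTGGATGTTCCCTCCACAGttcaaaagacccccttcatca

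**Figure D3:**
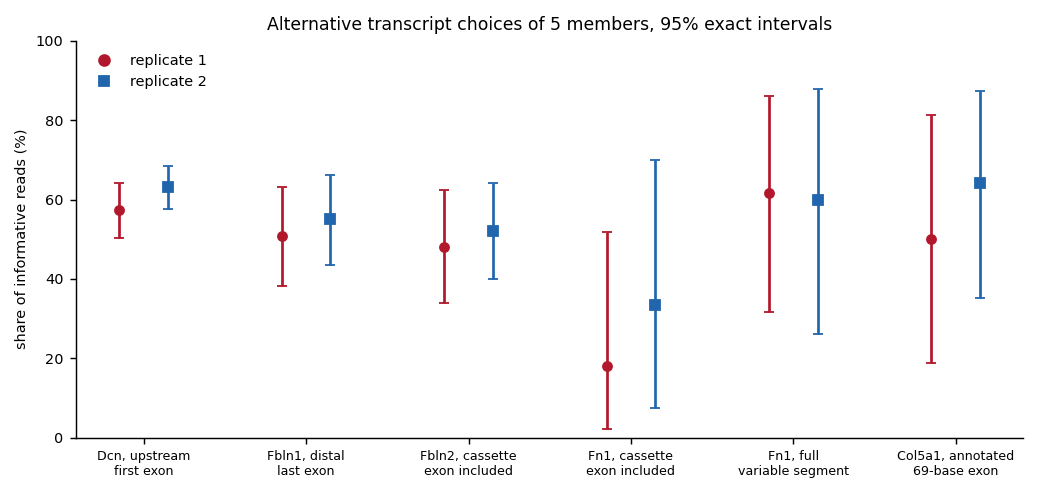
Share of reads in percent, for each library, that took the named form at exons or transcript ends of the matrix genes, with exact 95% intervals of counting error. The Fbln2 exon lies near the middle of the axis in both libraries, and the intervals of the libraries overlap at every choice drawn.

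Sparc (chr11:55394500-55423183, minus strand), a glycoprotein that binds collagen and calcium, was the highest of its role with 144 reads in replicate 1 and 165 in replicate 2, or 335 and 262 CPM. Its ratio of 1.28 (1.01 to 1.61) did not pass (exact binomial adjusted p = 0.636). For Sparc, 4 annotated transcripts had at least 10 reads in all. Sparc-201 had 53 reads in replicate 1 and 55 in replicate 2, and Sparc-202 had 14 and 19. The remaining reads were of Sparc-205, annotated as a retained intron, with 21 and 26 reads, and of Sparc-203, with 6 and 9. Those chains are part of longer annotated chains, so truncated copies and the short forms cannot be told apart. Sparcl1 (chr5:104079111-104113733, minus strand), a relative of Sparc, had 112 and 149 reads, or 260 and 237 CPM. Mgp, the matrix Gla protein that holds back calcification, had 19 reads in replicate 1 and 45 in replicate 2, or 44.2 and 71.4 CPM (ratio 0.618, interval 0.341 to 1.08). Vitronectin, Vtn, had 4 and 13 reads, the largest log2 ratio in size among the tested genes of the role at -1.04, which did not pass (exact binomial adjusted p = 0.921). Periostin, Postn, a marker of activated fibroblasts, had 0 reads in replicate 1 and 1 in replicate 2.

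Known-transcript use could be compared between libraries for 4 of the 44 genes, Dcn, Fbln1, Fbln2 and Sparc. None was called, against 0.182% of 550 genes tested, and none was under 0.05 before adjustment, against 4.55%. All 4 had an adjusted p of 1 by Fisher's exact test or, for Sparc, a permutation test. The largest change in share was 10.4 percentage points, in Fbln2.

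Laminins are 3-chain proteins of basement membranes, and nidogens link them to type IV collagen. Lamb2 (chr9:108479736-108490530, plus strand), the β2 chain, had 190 reads in replicate 1 and 201 in replicate 2, or 442 and 319 CPM. Its ratio of 1.38 (1.13 to 1.70) did not pass (exact binomial adjusted p = 0.140). Lamb1 (chr12:31265234-31329644, plus strand), the β1 chain, had 37 and 31 reads, or 86.0 and 49.2 CPM. Reads of Lamb2 outnumbered those of Lamb1 by 5.14 in replicate 1 and by 6.48 in replicate 2, with 5629 and 5784 bases in the longest coding transcripts. Lamc1, the γ1 chain, had 23 and 39 reads, or 53.5 and 61.9 CPM. The α chains Lama2, the muscle form, and Lama4, the vascular form, both had 4 reads in replicate 1 and 10 in replicate 2. Nid1 had 16 and 12 reads, the largest log2 ratio of the role at 0.95, which did not pass (exact binomial adjusted p = 0.792). Nid2 had 10 and 15 reads, and its locus overlaps Rtraf on the opposite strand.

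A new combination of annotated splice sites recurred in Lamb2. In 12 reads of each library the first exon ended 5 bases earlier than in Lamb2-201, at a donor site that the annotation holds in another transcript. The end of the longer exon (chr9:108479950-108479974, Lamb2-201, GENCODE M21 on GRCm38) is shown with the absent bases in capitals.
Lamb2: accagcccagtacccacacgGTCGG

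Serpinh1 (chr7:99345376-99353239, minus strand), which encodes HSP47, the collagen chaperone of the endoplasmic reticulum, had 185 reads in replicate 1 and 220 in replicate 2, or 430 and 349 CPM. Its mean of 390 ± 57.1 CPM (SD, n = 2) was of the size of the Col3a1 mean, 364 ± 109 CPM, with overlapping spread. The library ratio of 1.23 (1.01 to 1.50) did not pass (exact binomial adjusted p = 0.645). Pcolce, which enhances the trimming of procollagen ends, had 16 and 29 reads, or 37.2 and 46.0 CPM. Mmp2 (chr8:92827291-92853420, plus strand), a gelatin-cutting protease, had 30 and 42 reads, or 69.7 and 66.7 CPM. Its inhibitor Timp2 (chr11:118301069-118355740, minus strand) had 48 and 55 reads, or 112 and 87.3 CPM, so there were 1.60 Timp2 reads for each Mmp2 read in replicate 1 and 1.31 in replicate 2. Timp3, the inhibitor held in the matrix, had 90.6 and 98.4 CPM, and Timp4, the inhibitor known for its expression in heart, had 95.3 and 82.6 CPM. The means of the 3 inhibitors, 99.4 ± 17.1, 94.5 ± 5.50 and 88.9 ± 9.01 CPM (SD, n = 2), did not differ beyond their spread. Timp3 and Timp4 lie within Syn3 and Syn2, synapsin genes on the opposite strand.

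Both fibroblast identity genes were read in each library. Pdgfra (chr5:75152292-75198215, plus strand), the receptor of platelet-derived growth factor that marks cardiac fibroblasts, had 9 reads in replicate 1 and 14 in replicate 2, or 20.9 and 22.2 CPM. Tcf21 (chr10:22817281-22820174, minus strand), a transcription factor of the fibroblast lineage, had 7 and 8 reads, or 16.3 and 12.7 CPM. Their sums of 37.2 CPM in replicate 1 and 34.9 CPM in replicate 2 differed less than those of the fibrillar collagens, but the difference between the 2 sets was not tested. Outside the 44 genes, the actin-severing protein Gsn was the highest fibroblast marker, with 6550 CPM in replicate 1 and 5911 CPM in replicate 2 (log2 0.15, exact binomial adjusted p = 0.00885). Htra3 at 181 CPM and Dpep1 at 108 CPM followed.

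Over the 44 genes, 75.6% of reads in replicate 1 and 72.8% in replicate 2 were assigned to annotated transcripts, close to the 75.7% and 75.6% of other nuclear genes. Models that hold only a consecutive part of an annotated chain, the incomplete splice matches, took 18.8% and 20.0% of matrix reads, against 10.7% and 11% in other genes. New combinations of annotated splice sites took 1.53% and 1.45%, against 5.45% and 4.98%. Models labelled as having an unannotated splice site took 2.46% and 3.48%, against 3.72% and 3.53%. Genomic models, which lie over a gene but do not follow its splicing, took 1.64% and 2.34%, against 4.43% and 4.90%. Serpinh1 had 0 genomic reads in replicate 1 and 23 in replicate 2. Labels of 1 structure could differ, since 4 of 21 unannotated chains read in both libraries carried both the new-combination and the unannotated-site label. Col6a1 had 8 and 1 reads under the first label and 3 and 7 under the second. Without Gpc1, an alternative chosen after seeing the data, the mean share of annotated transcripts was 70.9% and that of incomplete matches 21.4%. The median gene with at least 20 reads had 70.7% of its reads in annotated transcripts among 32 matrix genes, against 80.6% among 5984 others.

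The share of annotated transcripts was lower in longer genes. Up to 2 kb it was 96.5% in replicate 1 and 96.4% in replicate 2, against 81.6% and 81.0% in other genes of that length. From 4 to 6 kb it was 78.3% and 73.5%, against 66.5% and 65.3%. From 6 to 8 kb the order was turned, with 36.5% and 31.5% against 51.0% and 49.6%, and beyond 8 kb it was 18.4% and 18.9% against 37.0% and 36.1%. These shares weight genes by their reads, and single genes held much of some classes. Up to 2 kb Dcn held 213 of 259 reads in replicate 1 and 323 of 418 in replicate 2, with 98.1% of its reads in annotated transcripts in either library. From 4 to 6 kb Gpc1 held 690 of 1394 reads in replicate 1 and 749 of 1511 in replicate 2. Without it the shares were 67.9% (interval 64.3 to 71.3%) in replicate 1 and 68.1% (interval 64.7 to 71.4%) in replicate 2. Those intervals hold the values of other genes. From 6 to 8 kb Col4a1 and Col4a2 held 250 of 307 reads in replicate 1 and 274 of 355 in replicate 2. Without that pair the shares were 50.9% (29 of 57 reads, interval 37.3 to 64.4%) in replicate 1 and 42.0% (34 of 81 reads, interval 31.1 to 53.5%) in replicate 2, intervals that hold the values of other genes. Both alternatives were chosen after seeing the data. Levels were lower in longer genes as well, with a Spearman correlation of length and mean CPM of -0.38 over the 44 genes and -0.14 over 12597 coding genes with a read, which share libraries and are a description only.

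**Figure D4:**
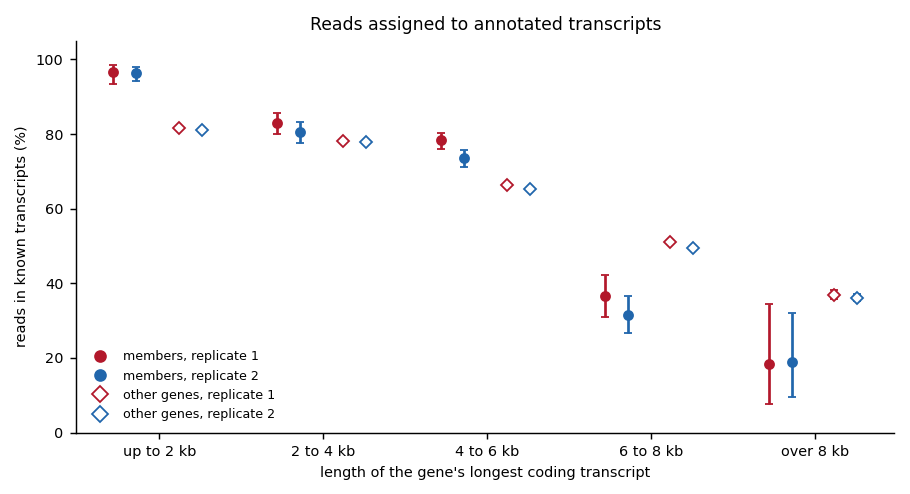
Share of reads in percent assigned to annotated transcripts, by length of the longest coding transcript, for the 44 genes (members) and other nuclear genes in each library, with exact 95% intervals of counting error. The matrix genes lie above the others up to 6 kb and below them beyond 6 kb, with Gpc1 holding 690 of 1394 reads from 4 to 6 kb in replicate 1 and Col4a1 with Col4a2 holding 250 of 307 from 6 to 8 kb. Up to 2 kb Dcn held 213 of 259 reads in replicate 1. Without Gpc1, or without Col4a1 and Col4a2, the intervals of those 2 classes hold the values of other genes.

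Reads at the first junction of a transcript were taken as a percentage of reads at its last junction. This measures how many reach the 5′ end only where reads use the annotated junctions. The median over 31 matrix genes was 83.3% in replicate 1 and 77.8% in replicate 2, and 81.0% over both libraries, against 93.2% over 5118 other genes. Above 6 kb the median of 7 matrix genes was 50%, against 83.0% for 335 others. Between 4 and 6 kb it was 83.3% for 13, against 89.2% for 888 others, and between 2 and 4 kb it was 91.2% for 8, against 93.3% for 2297. Within the matrix genes the values ran from 0%, in Col1a2, to 169%, in Fbln1. The part of short exons in the Col1a2 value was not tested. Both junctions were those of the most read known transcript, so alternative last exons enter the Fbln1 value and alternative starts the 60% of Dcn. Lamb2 stood at 109 reads for the first junction and 190 for the last in replicate 1, and 106 and 197 in replicate 2. The 12 Lamb2 reads of each library with the earlier first donor do not hold that first junction. Sparc, with a transcript of 2300 bases, had 68 and 124 in replicate 1 and 77 and 144 in replicate 2. Reads of the short forms Sparc-203 and Sparc-205, 6 and 21 in replicate 1 and 9 and 26 in replicate 2, do not hold its first junction.

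**Figure D5:**
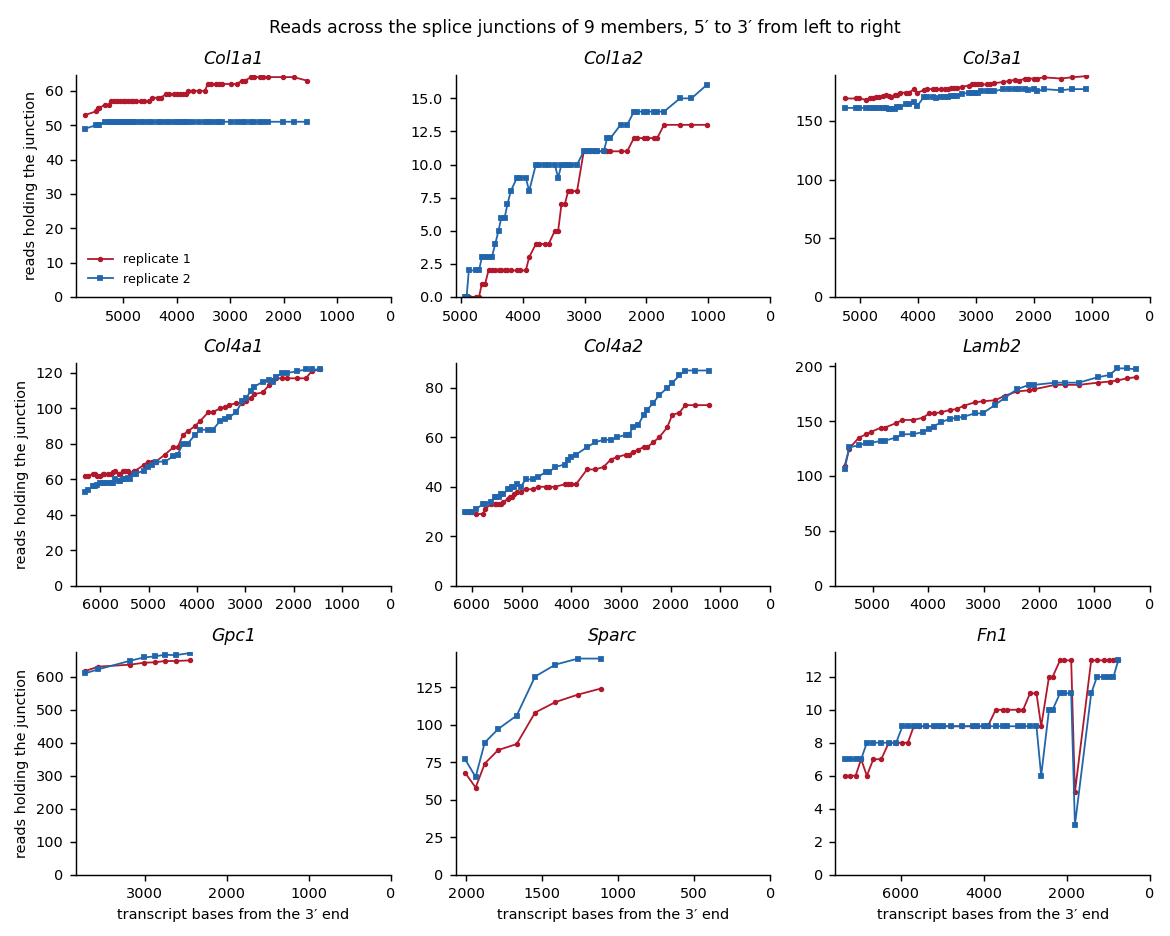
Reads that hold each annotated junction of 9 of the matrix genes, drawn from the 5′ end to the 3′ end of the transcript, for each library. Col3a1 stays nearly level, Col4a1 is lower toward the 5′ end, and Col1a2 has no read at its first junction.

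Models outside the annotation carry their own 3′ ends, whereas reads of known transcripts are listed with the annotated ones. An end here is that of a deposited model, counted once for each of its reads. Ends of single reads were not examined, so the read counts are not separate observations of an end. In all, 21 matrix genes had at least 10 reads in spliced models of that kind. Of these genes, 6 (28.6%) had most such reads in models ending at least 200 bases before the annotated end, against 531 of 2283 other genes (23.3%). They were Col1a1 with 15 of 15 reads, Col1a2 with 29 of 29, Col3a1 with 57 of 57, Col5a1 with 16 of 20, Fbln1 with 11 of 11 and Gpc1 with 127 of 127. The commonest such end lay 1195 bases short in Col1a1 and 688 in Col3a1 in either library. For Gpc1 it lay 567 bases short in replicate 1 (38 of 38 reads) and 584 in replicate 2 (89 of 89). For Col1a2 it lay 537 bases short in replicate 1 (13 of 13 reads) and 582 in replicate 2 (16 of 16). Hexamers were sought at 1 end per gene, the commonest over both libraries together, which is the replicate 2 end for Gpc1 and Col1a2. A polyadenylation hexamer, AATAAA or ATTAAA, lay within the 50 bases before the commonest short end in 3 of the 6, Col3a1, Fbln1 and Gpc1, against 342 of 515 other genes (66.4%). For the annotated ends the numbers were 20 of 21 matrix genes, all but Gpc1, and 81.7% of the others.

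Among unannotated donor sites of the matrix genes, 27 of 97 (27.8%) lay exactly 4 bases from an annotated one, against 16.0% of 13170 in other genes. For acceptor sites the shares were 4 of 68 (5.88%) and 5.82%. Of 167 unannotated intron chains in the matrix genes, 21 (12.6%) were read in both libraries, against 16.0% of 34057 in other genes, and 138 rested on a single read. Besides the Col6a1 chain without its short exons, read 7 times in replicate 1 and 6 times in replicate 2, and the Lamb2 chain, Mmp2 had an extra intron of 461 bases (chr8:92852714-92853174) in 5 and 4 reads. Unannotated loci on the strand opposite to 10 of the matrix genes had 10 reads in replicate 1 and 11 in replicate 2.

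Genes outside the 44 that modify and support the matrix were also read, and none of those tested passed the library comparison, which 0.693% of all genes tested did. Of 28 collagen modification and cross-linking genes, 27 had a read and 0 of 18 tested passed the library comparison, led by the prolyl hydroxylase subunits P4hb at 384 CPM and P4ha2 at 165 CPM, with the transport coat protein Sec23a at 126 CPM. The elastic fibre genes had 11 of 12 read and 0 of 9 passing, led by Ltbp4, which binds latent TGF-beta, at 412 CPM, Emilin2 at 73.7 CPM and Emilin1 at 24.6 CPM. Of 15 other proteoglycans, 13 were read and 0 of 11 passed, with Podn at 61.9 CPM, Ogn at 48.0 CPM and Prelp at 39.5 CPM on top. Other basement membrane genes had 5 of 8 read, with Lama5 at 49.9 CPM, Lamb3 at 28.3 CPM and Agrn at 16.4 CPM, and 0 of 4 passed. Other matrix glycoproteins had 15 of 17 read and 0 of 9 passing, led by Igfbp7 at 166 CPM, Smoc2 at 108 CPM and Ecm1 at 68.9 CPM.

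The remaining lists cover turnover and sensing of the matrix. Proteases and inhibitors had 20 of 21 genes read and 0 of 11 passing, with Mmp15 at 81.2 CPM, Adam15 at 68.2 CPM and Adamtsl4 at 67.7 CPM highest. All 12 TGF-beta signalling genes were read and 0 of 7 passed, with Smad4 at 107 CPM, Ski at 84.2 CPM and the ligand Tgfb3 at 32.1 CPM. Matrix receptors had 14 of 15 read and 0 of 10 passing, led by the integrin subunits Itgb1 at 436 CPM, Itga7 at 221 CPM and Itgb5 at 117 CPM. Of 52 cell type markers tested, Gsn included, 4 passed, against 0.693% of all genes tested. Myh6, the main cardiac myosin of the adult mouse, had 36490 CPM in replicate 1 and 27652 CPM in replicate 2 (exact binomial adjusted p = 1.3e-135). Pln, the calcium pump regulator, had 6559 and 7258 CPM (exact binomial adjusted p = 0.00559), and the adipocyte carbonic anhydrase Car3 had 48.8 and 129 CPM (exact binomial adjusted p = 0.00604). The highest endothelial markers were Fabp4 at 432 CPM, Eng at 280 CPM and Egfl7 at 114 CPM. Among mural cell markers Rgs5 stood at 332 CPM, Abcc9 at 88.4 CPM and Acta2 at 83.0 CPM, and among macrophage markers Cd74 at 156 CPM, Lyz2 at 155 CPM and C1qc at 51.5 CPM. Epicardial markers were low, with 74.4 CPM in replicate 1 and 58.7 CPM in replicate 2 over 6 of 7 genes, with Muc16 at 0. Valve markers had 9.30 and 15.9 CPM over 6 of 7 genes with Hapln1 at 0.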

How the data were processed

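The authors deposited raw read counts for each transcript model of the long-read heart libraries, in a separate unpooled table for each. Alignment was to mm10 with GENCODE M21 as annotation, per the deposited text files. The annotation files name TALON as the source of models that GENCODE M21 lacks; the aligner and program versions are not given in the sources used here. Mapped columns left 0 value columns unused.

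Counts of all model classes were summed per annotated gene, and CPM used nuclear totals. The exact binomial test needed 10 summed reads, known shares and known-transcript use 20 reads in each library, and exon events 10 in each. Adjustment was by Benjamini-Hochberg over all features tested. Genes were called at an adjusted p under 0.05 and 2-fold, and shares at 10 percentage points. Log2 ratios used 0.5 added reads. With more than 2 transcripts, 100000 random tables were drawn. Intervals are exact Clopper-Pearson 95% intervals, and a count of 0 allows 3 reads; both cover counting error only, because copies of a molecule cannot be told apart. Tests were checked on simulated counts with counting error alone, which cannot show how they behave under a spread between libraries.

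Genes were named by rule: the 3 highest and the largest ratio in each role, and every gene that passed, had no read in a library, or had a variable exon or several known transcripts. Genes printed beyond this rule, the exon and 3′ end results among them, were picked once values were known. The 44 genes and all lists were chosen with earlier results of these data known. Exon and coding sequences came from GENCODE M21 on GRCm38 and the promoter window from RefSeq on GRCm38.p6. Alternatives were TMM (edgeR 4.0.16) and DESeq2 1.42.0 size factors, other totals, filters and model classes. Python 3.11.15 with numpy 2.4.6, scipy 1.17.1, pandas 2.3.3 and matplotlib 3.10.9, and R 4.3.3 were used.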

Additional observations from a re-analysis of the deposited data

How the results depend on the processing

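TMM factors, DESeq2 size factors, the total of all mouse reads and no filter on low counts kept all 37 tested matrix genes on their side of the threshold and in their direction. Of 347 log2 ratios under alternatives, 330 kept both. Scaling by ERCC reads put the median log2 ratio of all genes at -0.25, against 0.01. It gave 346 passing genes against 56, 67 called against 26, 0 matrix genes passing against 2, 5 at an unadjusted p under 0.05 against 9, and a matrix median of -0.0032 against 0.26. Under it the log2 ratios of Col1a2 (-0.0032), Col5a1 (-0.14), Fbln1 (-0.16), Fbln2 (-0.11), Sparcl1 (-0.12), Mmp2 (-0.19) and Timp4 (-0.053) changed sign, and Col3a1 (0.36, exact binomial adjusted p = 0.197) and Gpc1 (0.17, adjusted p = 0.251) no longer passed. With known transcripts alone 15 genes were called, the summed level of the 44 genes was 4185 CPM, and Fbln2 (-0.13), Nid2 (0.24) and Mmp2 (-0.025) changed sign. Without genomic models Pdgfra (0.15) changed sign, and 19 genes were called for the known share against 0. Totals of the same length class, added after seeing the data, left 1 matrix gene passing and turned Col5a1 (-0.10) and Dcn (0.012). Without Gpc1, also added later, the summed level was 4234 CPM and the shares of annotated, incomplete and newly combined models were 70.9%, 21.4% and 1.85%. The causes were not tested. Leaving out either library put the summed level at 5025 to 6236 CPM, annotated models at 72.8 to 75.6%, incomplete ones at 18.8 to 20.0%, models with unannotated sites at 2.46 to 3.48%, new combinations at 1.45 to 1.53% and first-junction coverage at 77.8 to 83.3%. With at least 50 summed reads Col1a1 passed (exact binomial adjusted p = 0.0418). Depth limits the low genes: 7 of the 44 had under 10 reads. No paired analysis was possible because there is only 1 group.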
